A study of Mus musculus with 2 samples.

Results

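The Angptl7 Hhip stroma is a set of 1899 stromal barcodes of a Mettl14 f/f mouse uterus on gestational day 4. Its barcodes were chosen by measured values of the f/f library alone, namely which genes had at least 1 unique molecular identifier (UMI) in a barcode. A barcode counted as stroma with at least 3 of Pdgfra, Dcn, Hand2, Hoxa10, Hoxa11 and Islr and no UMI of Epcam, Pecam1, Ptprc or Myh11. It joined the set with at least 2 of Angptl7, Fst, Hhip, Vit and Maob. It also needed more of these than of Scnn1b, Slc6a2, Hsd11b2, Stra6 and Map2, and more than of Nog, Lef1, Col7a1, Cpxm2 and Nkd2. The set made up 46.1% (95% exact Clopper-Pearson interval 44.5 to 47.6) of 4122 f/f stromal barcodes within 7610 kept f/f barcodes, out of 13935 kept in both libraries. The same rule with the other gene groups gave a Scnn1b Slc6a2 set of 969 barcodes (23.5%) and a Nog Lef1 set of 146 (3.54%), and 1108 (26.9%) fell in none of the 3.

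The study profiled whole uterus by droplet 3′ single-cell RNA sequencing, with 1 library from a Mettl14 f/f sample (alleles flanked by recombination sites) and 1 from a Mettl14 d/d sample (deleted alleles), both on gestational day 4. Mettl14 encodes a subunit of the complex that writes N6-methyladenosine (m6A) on RNA. Which exons were deleted and what drives the recombinase are not given in the labels, nor is it said how many animals were pooled. With 1 library per genotype there is no replicate check and no p-value, every interval covers counting error only, and genotype and library cannot be told apart.

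Endometrial stroma is the connective tissue beneath the uterine epithelium. Before implantation it answers to progesterone and estrogen directly and through epithelial ligands such as Indian hedgehog, and around an attached embryo it differentiates into decidua. Wnt and BMP signals and their secreted antagonists differ between stromal layers. Of the genes in the name, Hhip encodes a membrane protein that binds hedgehog ligands and is itself switched on by the pathway, and Angptl7 encodes a secreted angiopoietin-like glycoprotein.

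The 2 genes in the name have promoters of unlike base composition, shown here because both genes are among the 5 that chose the set. Each window below is the 250 bases before the start site on the gene's own strand, from RefSeq on GRCm38.p6, with CG dinucleotides in capitals.
Angptl7: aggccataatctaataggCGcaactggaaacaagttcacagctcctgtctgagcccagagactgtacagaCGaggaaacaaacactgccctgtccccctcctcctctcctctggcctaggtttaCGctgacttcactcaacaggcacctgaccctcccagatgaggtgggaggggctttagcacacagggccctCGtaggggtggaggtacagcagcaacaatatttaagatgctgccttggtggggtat
Hhip: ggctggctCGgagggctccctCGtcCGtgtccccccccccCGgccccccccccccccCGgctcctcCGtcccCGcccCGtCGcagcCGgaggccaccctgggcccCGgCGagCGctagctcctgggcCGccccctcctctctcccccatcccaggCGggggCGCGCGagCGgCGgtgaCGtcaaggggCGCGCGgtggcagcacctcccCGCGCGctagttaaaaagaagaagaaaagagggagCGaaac
The Angptl7 window (chr4:148500463-148500712, minus strand) had 4 CG dinucleotides and 54.4% G or C. The Hhip window (chr8:80058009-80058258, minus strand) had 28 and 76.0%. The median over 32851 mouse promoter windows of this length was 6 CG dinucleotides and 52.4% G or C, and 92.1% of windows held at least 1. On either strand, neither window held the GLI letters GACCACCCA (in 0.225% of all windows), the TCF/LEF letters CTTTGAT (3.21%), the palindromic progesterone and glucocorticoid receptor motif (0.387%) or the TATA box letters TATAAA (12.4%). Fst, Vit and Maob were not matched in the promoter table.

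The 5 marker genes, which chose the set, lie on 5 chromosomes (GRCm38: Angptl7 on chromosome 4, Fst on 13, Hhip on 8, Vit on 17 and Maob on X) and were detected unequally in it. Levels are given as CPM, a gene's UMIs as a fraction of all UMIs of a set, times 1000000, and shares as barcodes with at least 1 UMI. Maob, which encodes the mitochondrial monoamine oxidase B, stood at 705 CPM (exact Poisson interval 691 to 720) and was detected in 93.5% of the 1899 barcodes. Fst, encoding the activin-binding protein follistatin, stood at 415 CPM in 83.2%, and Angptl7 at 405 CPM in 71.6%. Vit, encoding the extracellular matrix protein vitrin, stood at 325 CPM in 83.9%. Hhip stood at 81.5 CPM (76.7 to 86.5) and was detected in 30.5% (28.5 to 32.7), so most barcodes of the set had no Hhip UMI. All 5 were lower in the other f/f stromal sets. Angptl7 stood at 92.3 CPM in the Scnn1b Slc6a2 set, 31.0 CPM in the Nog Lef1 set and 158 CPM in the stroma in none of the 3. Hhip stood at 5.29 and 15.1 CPM in the first and last of these, and was seen in 0 of 146 Nog Lef1 barcodes, a set whose rule selects against it (a floor of 3 counts allows a share of up to 2.05%).

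**Figure D1:**
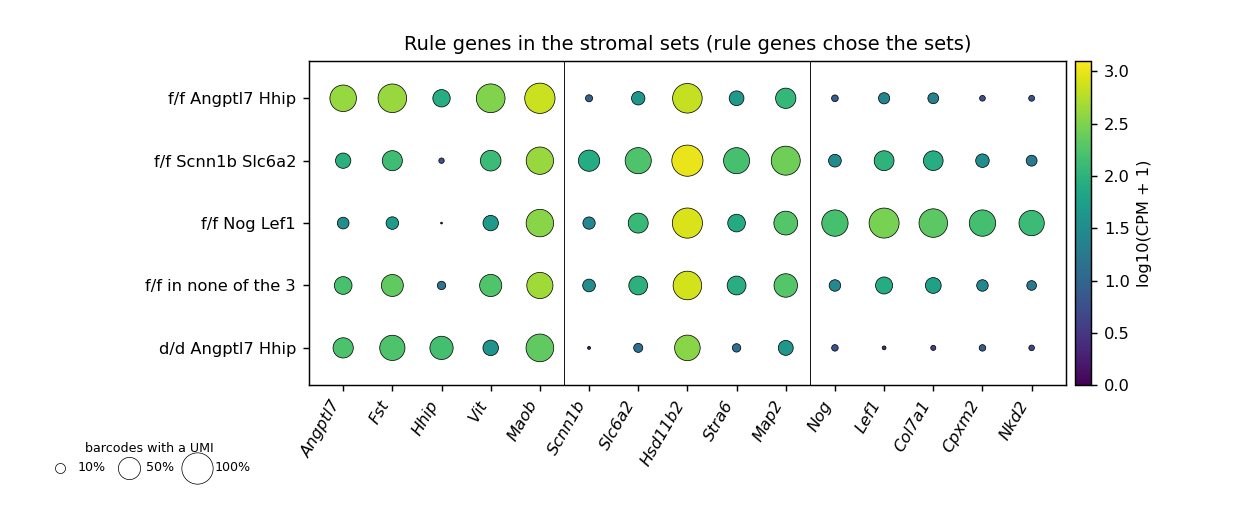
Each dot is 1 of 15 rule genes (columns, in the 3 groups of 5 that define the sets) in 1 stromal set (rows), with the percent of barcodes with a UMI as dot area and log10(CPM + 1) as colour. Hsd11b2 and Maob are large in every f/f row, while Hhip is a small dot even in its own f/f set (30.5%).

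Marker RNA was also detected in f/f barcodes of other cell types, and whether free RNA was its source was not tested. The types compared were 693 f/f immune-like barcodes (median 3919 UMIs) and 639 endothelium-like barcodes (median 7142), which the rule bars from stroma. Whether they make these genes themselves was not tested. Angptl7 was detected in 18.2% and 20.3%, Hhip in 4.47% and 6.10%, and Maob in 27.8% of the immune-like barcodes. Fst was detected in 18.2% and 19.9% of these types. The set had a median of 6371 UMIs. The Nog Lef1 shares for Angptl7 (13.7%) and Fst (15.8%) and the Scnn1b Slc6a2 share for Hhip (2.68%) were no higher than in these types, but the rule also selects against these genes there, so those shares are not read as expression or as its absence. In the d/d library the same 2 types showed Angptl7 in 0.148% and 1.14%.

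Membership was graded. Of the 1899 barcodes, 183 (9.64%) had 2 of the 5 markers, 617 had 3, 822 had 4 and 277 had 5. The margin over the better of the other 2 gene groups was 1 marker in 811 (42.7%) and 2 in 651. Hsd11b2, which encodes the enzyme that inactivates glucocorticoid and belongs to a rival group, was detected in 89.0% of the set at 680 CPM, against 986 CPM in the Scnn1b Slc6a2 set. Barcodes inside by 1 marker had 1613 CPM of the 5 markers summed, and the 676 left outside by a tie had 1295 CPM. The 183 barcodes with 2 own markers had 1128 CPM, and the 53 outside with 1 own marker and no rival marker had 341 CPM. When all barcodes were thinned to 2000 UMIs, 40.1% (1321 of 3295) of the f/f stroma met the rule, and 938 of the 1843 deep enough members did so again.

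The rule required stromal genes and barred 4 genes of other types, so the marker levels are a description. All 8 further stromal markers were detected, led by the fibrillar collagen gene Col3a1 at 3829 CPM. Of the markers of other types, the 14 epithelial ones summed to 40.3 CPM (44.1 in the other f/f stroma), with Ltf at 0. The 11 endothelial ones summed to 203 CPM (191), mostly Cdh5 at 158 CPM. The 11 immune markers, none of them at 0, summed to 122 CPM in the set, 79.2 in the Scnn1b Slc6a2 set, 62.1 in the Nog Lef1 set and 97.5 in the stroma in none. C1qb, Lyz2 and Cd74 were the 3 of them at least 1.5-fold higher than in the other stroma. The 10 pericyte markers summed to 83.7 CPM (145 in the other stroma), the 10 smooth muscle markers to 592 CPM (627), the 7 nerve and glia markers to 6.59 CPM (7.14) and the 5 red cell markers to 13.3 CPM (26.3). The 8 mesothelial markers summed to 176 CPM (253), nearly all of it Wt1, which endometrial stroma also expresses, and Msln was at 0.

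Against the other f/f stroma, few genes outside the rule differed, and the 30 named ones differed by 0.93 to 2.91 log2 units in either direction. Without the 25 rule genes, 11044 genes had at least 50 UMIs in the higher group. Of these, 226 (2.05%) were at least 1.5-fold higher in the set and 447 (4.05%) at least 1.5-fold lower. The other stroma held more UMIs, so that minimum is not the same level on both sides. With a minimum of 50 CPM in the higher group, 45 were higher and 49 lower of 3024. The median log2 ratio over the 11044 genes was -0.04. In the gene lists below, a gene counts as measured with at least 20 UMIs over both groups. All of these genes come from the barcodes that the rule sorted, so these are descriptions of the set and not tests.

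Fam46c, encoding a non-canonical poly(A) polymerase, stood at 77.1 CPM in the set, 16.1 in the Scnn1b Slc6a2 set, 8.87 in the Nog Lef1 set and 41.7 in the stroma in none. Its ratio to all other stroma was 2.82 (conditional exact interval 2.52 to 3.16), a log2 difference that was 0.80 when the rule was applied to thinned barcodes. The level of 1500015O10Rik, which encodes the secreted peptide precursor augurin, was 63.6 CPM against 22.4 CPM. Fancc, a DNA repair gene of the Fanconi anaemia group, stood at 45.3 against 17.2 CPM. In each of these genes the set was the highest of the 4 and the Nog Lef1 set the lowest. The 4 groups are not uniform: 246 stromal barcodes outside the set, in a cluster led by C3 and Clec3b, had 85.5 CPM of Fam46c.

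Ctla2a, encoding an inhibitor of cysteine proteases, was the most abundant named gene of the set at 4673 CPM, against 2168 CPM in the other stroma (log2 1.11). Ly6a, the stem cell antigen Sca-1, stood at 515 against 234 CPM, and its relative Ly6c1 at 86.2 against 42.3 CPM. Cxcl12, a chemokine that attracts leukocytes and vessel-forming cells, stood at 227 against 119 CPM. Entpd2, an ectoenzyme that degrades extracellular ATP, stood at 149 against 75.7 CPM, and Cldn1, a tight junction claudin, at 35.5 against 15.0 CPM. Arl4d, Anxa3, Hrk, Dpep1, Pdpn and Tspan11 completed the 15 higher genes, with log2 ratios from 0.93 to 1.17.

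Among the 15 lower genes, Pappa had the largest difference. This gene encodes a protease that cleaves IGF binding proteins and stood at 3.22 CPM in the set, 24.4 CPM in the Scnn1b Slc6a2 set and 47.9 CPM in the Nog Lef1 set (ratio to all other stroma 0.133, interval 0.0947 to 0.184), a log2 difference of -2.91 that was -2.06 under the rule on thinned barcodes. Tnc, encoding the matrix glycoprotein tenascin C, stood at 5.05 against 24.4 CPM in the other stroma. Several receptors were lower. Rxfp1, the relaxin receptor, stood at 63.4 against 161 CPM, Pth1r, the parathyroid hormone receptor, at 40.1 against 114 CPM, and Ednrb, an endothelin receptor, at 28.3 against 79.0 CPM. Ramp3, a partner protein of the calcitonin family receptors, stood at 10.2 against 33.1 CPM. Gja1, the gap junction protein connexin 43, stood at 63.2 against 169 CPM. For all of these genes the Nog Lef1 set was the highest and the Angptl7 Hhip set the lowest of the 4 groups.

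**Figure D2:**
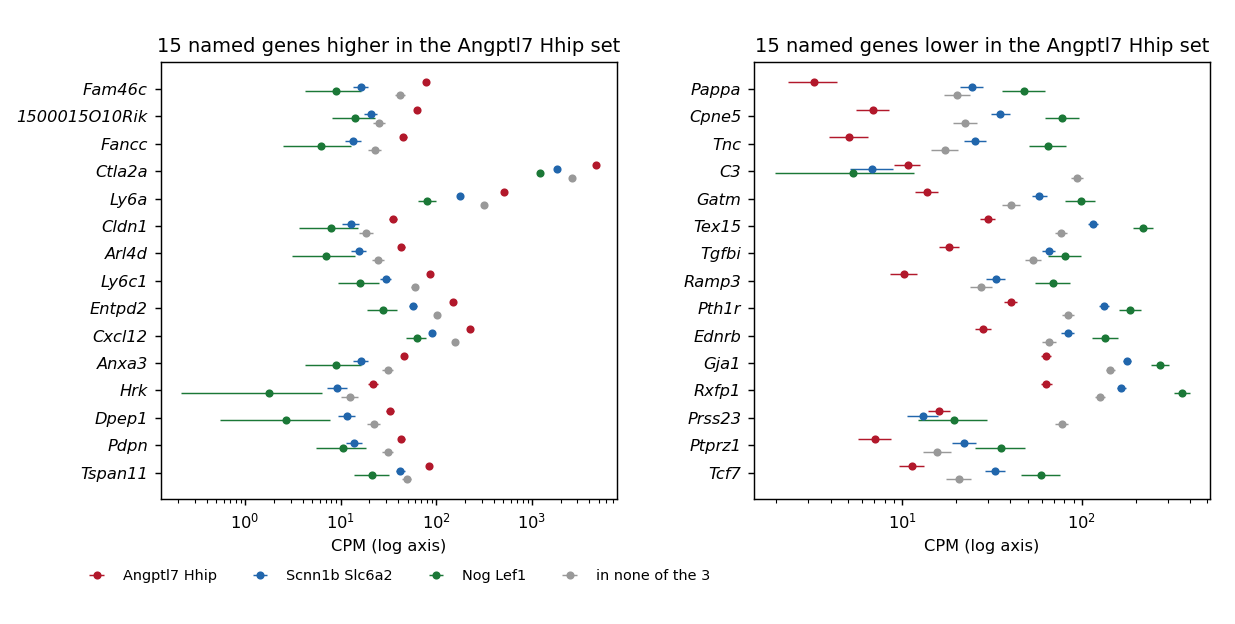
Points give the CPM (log axis) of the 15 highest and 15 lowest ranked genes in the 4 f/f stromal groups, and bars are 95% Poisson intervals. The Angptl7 Hhip points (red) lie to the right of all others in the left panel, and to the left of all others in the right panel except for C3 and Prss23, which are high in the stroma in none of the 3 (grey).

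C3 and Prss23 behaved otherwise. C3, the central complement component, stood at 10.7 CPM in the set, 6.84 in the Scnn1b Slc6a2 set, 5.32 in the Nog Lef1 set and 93.9 in the stroma in none. Without a cluster of 328 barcodes led by C3 and Clec3b, its log2 ratio to the other stroma moved from -2.12 to -0.03, and that of Prss23 from -1.42 to -0.26.

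Of 13 measured genes of hedgehog reception and response, 0 were at least 1.5-fold higher and 0 lower than in the other stroma, and their median log2 ratio was -0.06. With 2.05% of all genes higher and 4.05% lower, a count of 0 in a list of this size is near the background. The receptor and target Ptch1 stood at 344 CPM in the set and 373 CPM in the other stroma, and the target and effector Gli1 at 107 and 104 CPM. Nr2f2, encoding the stromal factor COUP-TFII, stood at 697 and 642 CPM. Against the Nog Lef1 set, Gas1, a hedgehog co-receptor, was higher (374 against 161 CPM) and Sufu, an inhibitor in the pathway, was lower (27.9 against 47.9 CPM). Ptch1 stood at 491 CPM there.

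Wnt genes were among the lower ones. The rule selects against Lef1 and Nkd2, which belong to the Wnt pathway, so lower levels of related genes may be partly fixed by it. That part was not tested. Of 9 measured Wnt ligands and R-spondins, 4 were lower than in the other stroma (Wnt4, Wnt5b, Wnt6 and Wnt16) and 1 was higher (Rspo3), with a median log2 ratio of -0.41. Wnt16 stood at 6.28 CPM in the set, 20.9 in the Scnn1b Slc6a2 set and 40.8 in the Nog Lef1 set. Wnt5a, the most abundant ligand, stood at 244, 323 and 582 CPM in that order. Rspo3, an enhancer of Wnt signalling, ran the other way, at 23.8, 9.68 and 6.21 CPM. Of 15 measured receptors and feedback targets, 3 were lower and 0 higher: the target Axin2 (16.3 against 36.6 CPM), the inhibitor Nkd1 (7.12 against 17.9) and the transcription factor gene Tcf7 (11.3 against 29.2). Of 9 antagonists, Frzb, Dkk2 and Apcdd1 were lower and Sfrp4 was higher, at 120 against 75.4 CPM.

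BMP, TGF-beta and activin genes gave mixed counts. Of 13 measured ligands, Bmp7 (35.3 against 77.1 CPM) and Bmp3 (0.613 against 5.49 CPM) were lower and Tgfb1 (6.43 against 4.15 CPM) was higher. Of 10 measured antagonists, leaving out the marker Fst, 1 was higher, the pseudoreceptor gene Bambi at 31.6 against 20.8 CPM. Of 15 receptors and targets, 0 passed in either direction. Steroid receptors lay close together: Pgr stood at 271 against 256 CPM and Esr1 at 237 against 278 CPM. In that list of 18, Fkbp5, a chaperone gene that steroids induce, was higher at 11.5 against 5.43 CPM and Il13ra2 was lower at 20.4 against 36.7 CPM. Hand2, a progesterone-induced stromal factor that is one of the genes defining stroma here, stood at 111 against 168 CPM. Of 16 measured Hox genes, 0 passed in either direction, with a median log2 ratio of -0.34, and Hoxd8, Hoxd9, Hoxd10 and Hoxd11 were lower than in the Nog Lef1 set.

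Growth factor, vessel and lipid mediator genes gave small counts against the other f/f stroma. Among 8 measured IGF genes, the IGF binding protein genes differed in direction: Igfbp3 was higher, at 268 against 168 CPM, and Igfbp5 was lower, at 290 against 520 CPM. Among 10 FGF and epithelial growth factor genes, 1 was higher, Fgf7, a stromal ligand for epithelium, at 9.88 against 4.76 CPM, and 0 were lower. Of 23 angiogenic factors and angiopoietin-like genes, leaving out the marker Angptl7, 3 were higher and 3 lower, with a median log2 ratio of 0.20. Sema3c, a secreted semaphorin, stood at 229 CPM in the set and 72.7 CPM in the Nog Lef1 set, and Vegfc, a lymphatic growth factor, at 1.76 and 9.76 CPM. The retinoic acid list had 4 of 13 lower and 0 higher, among them Rdh10, a retinol-oxidising enzyme, at 35.2 against 53.0 CPM. Of 15 prostaglandin genes, the receptor gene Ptgfr was higher (11.6 against 5.80 CPM), and Ptgis and the degrading enzyme gene Hpgd (12.4 against 24.96 CPM) were lower. Of 8 monoamine and histamine genes other than Maob, 1 was lower (Adra1a) and 0 higher, and Maoa, the paralog of Maob, stood at 67.0 against 69.8 CPM. Of 17 decidualization genes, Wnt4, Gja1 and Angpt2 were lower and 0 higher. Of 19 m6A genes, 0 passed in either direction.

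Against the Scnn1b Slc6a2 set, the difference leaned to higher genes in the Angptl7 Hhip set. Of 10526 genes, 504 (4.79%) were higher and 289 (2.75%) lower, or 96 and 61 of 3053 at 50 CPM in the higher group. Extracellular matrix genes were prominent: 21 of 44 measured were higher and 2 lower (Thbs1 and Tnc), with a median log2 ratio of 0.53, whereas against all other stroma the counts were 7 and 3 of 45 with a median of 0.05. Col1a1, a fibrillar collagen, stood at 2766 CPM in the set and 1622 CPM in the Scnn1b Slc6a2 set, but at 3643 CPM in the stroma in none. The matricellular gene Sparc stood at 1992 against 954 CPM, and the small proteoglycan gene Ogn at 95.4 against 27.6 CPM. Of 25 matrix remodelling genes, 7 were higher and 1 lower, among them Lox, a collagen cross-linking enzyme, at 84.0 against 29.9 CPM and the aggrecanase Adamts5 at 119 against 51.1 CPM.

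Counts for genes of adventitial fibroblasts and of innate defence also leaned to higher in this comparison. Against all other stroma, 6 adventitial genes were higher and 4 lower of 19 (median 0.15), where 2.05% of all genes were higher and 4.05% lower. There, 2 chemokine and complement genes were higher and 2 lower of 21. Against the Scnn1b Slc6a2 set, 10 of 18 measured adventitial genes were higher and 0 lower. They included the peroxidase Gpx3 at 259 against 71.0 CPM and the methyltransferase Inmt at 21.5 against 5.42 CPM (log2 1.99, or 1.12 under the rule on thinned barcodes). Of 20 chemokine and complement genes, 9 were higher, including the complement component gene C4b at 20.9 against 5.68 CPM (log2 1.88, or 0.98 when thinned), and 1 was lower, the chemokine gene Cxcl14, at 42.6 CPM in the set and 157 CPM in the Nog Lef1 set. Of 24 immediate early and heat shock genes, which handling of tissue can induce, 9 were higher and 0 lower with a median of 0.55, and the summed immune markers were 122 against 79.2 CPM. The part of handling and of immune RNA in these counts was not tested. The named lower genes included Pappa, Grin2b, a glutamate receptor subunit (3.75 against 24.4 CPM), Serinc2 (3.83 against 24.9 CPM) and the laminin gene Lamc3 (19.5 against 56.0 CPM).

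Against the Nog Lef1 set, 1137 of 10487 genes (10.8%) were higher and 219 (2.09%) lower. The smaller set held 1127494 UMIs against 13056735, so that a gene of the same CPM more easily reaches 50 UMIs when it is higher in the larger set, and such a gene has only a few UMIs in the smaller set, where counting error alone can pass 1.5-fold. At 50 CPM the counts were 209 higher and 190 lower of 3215. Here 14 of 18 adventitial genes were higher and 0 lower, with a median of 1.11 (0.46 when thinned). Ly6a stood at 515 against 79.8 CPM, Entpd2 at 149 against 27.5 CPM and Apoe, a lipid carrier, at 196 against 44.3 CPM. The lower genes were led by Pappa, Tnc and the Wnt antagonist Dkk2 (4.98 against 55.0 CPM), followed by Rxfp1 (63.4 against 361 CPM) and the transcriptional repressor gene Prdm1 (60.8 against 271 CPM).

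**Figure D3:**
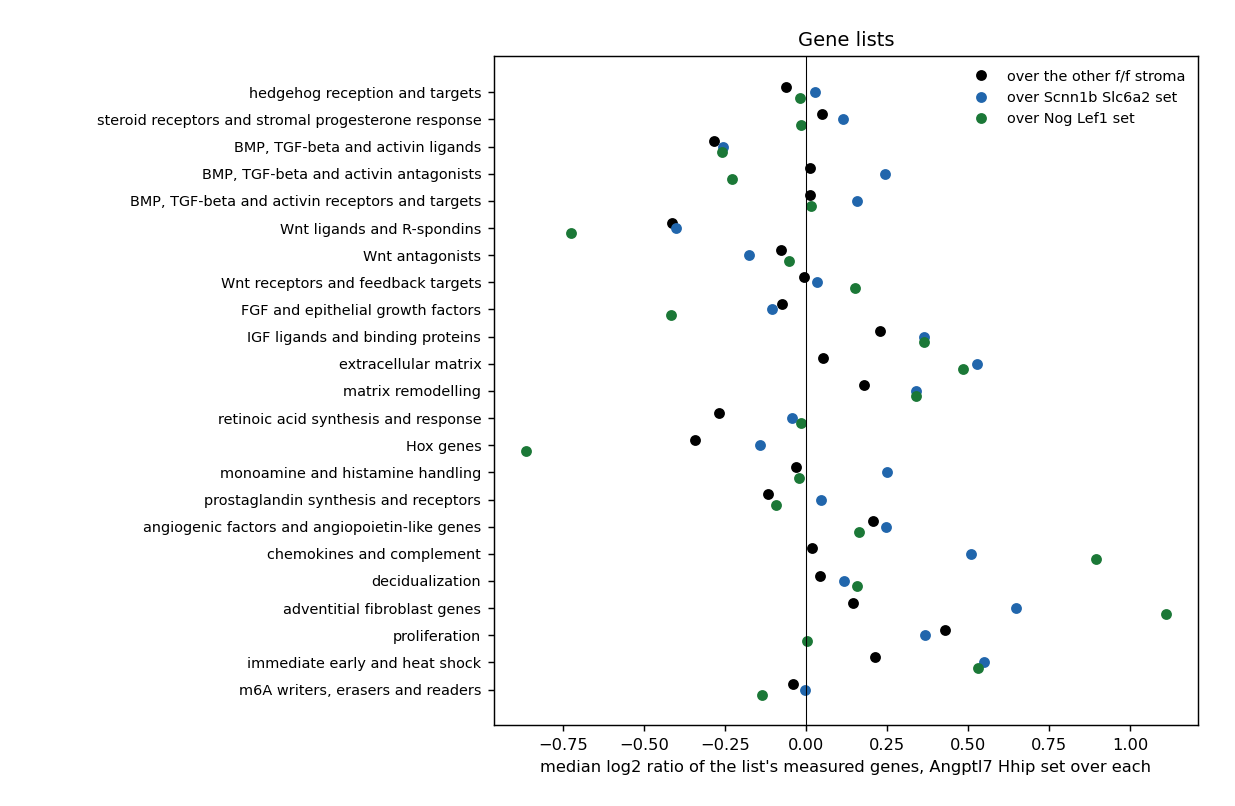
Each row is 1 of 23 gene lists and each point the median log2 ratio of its measured genes, Angptl7 Hhip set over the other f/f stroma (black), the Scnn1b Slc6a2 set (blue) or the Nog Lef1 set (green). Adventitial, matrix and chemokine or complement genes lie to the right against both named sets (adventitial 0.65 and 1.11) and Wnt ligands lie to the left.

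Of 24 proliferation genes, 4 were at least 1.5-fold higher than in the other stroma (Nusap1, Prc1, Kif11 and Aurka) and 0 lower, with a median of 0.43. Against the Scnn1b Slc6a2 set 2 were higher and 1 lower (Mcm3), and against the Nog Lef1 set 1 was higher and 0 lower, with a median of 0.00 that was 1.11 under the rule on thinned barcodes. Nusap1, a spindle protein gene, stood at 29.1 against 14.6 CPM and Mki67 at 47.6 against 38.4 CPM. The share of barcodes in the mitotic cluster of the main clustering was not higher. It held 133 of the 1899 barcodes of the set, 8.77% of the Scnn1b Slc6a2 set, 9.59% of the Nog Lef1 set and 7.40% of the stroma in none. Within that cluster, Mki67 stood at 390 CPM in the set and 237 CPM in the other barcodes. At resolution 1, a cluster led by Ccnb1 and Aspm held 4.63% of the set, and 4.02%, 4.79% and 3.61% of the other groups in the same order. A cluster led by Slfn9 and histone genes held 2.95% of the set, and 5.26%, 5.48% and 4.33% of the others.

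The set was then looked for in genes that the rule had not used. F/f stroma was clustered without the 25 rule genes, which gave 9 clusters. The largest, cluster 0 with 1548 barcodes, was led by Adarb2, Sult5a1, Fam46c, Fancc and 1500015O10Rik. It held 1191 (62.7%) of the set, which made up 76.9% of it, and 0 Nog Lef1 barcodes. Cluster 1 (1317 barcodes, led by Ptger3, Col22a1 and Crispld1) held 432 of the set, 32.8% of the cluster, beside 481 Scnn1b Slc6a2 barcodes. Cluster 2 (496 barcodes, led by Tnc, Pappa and Lipg) held 8 of the set and 104 of the 146 Nog Lef1 barcodes. The mitotic cluster held 133 of the set, the cluster led by C3 and Clec3b 82, one led by macrophage genes such as C1qa 28, one led by interferon-induced genes such as Ifit1 10 and one led by the pericyte gene Rgs5 9. On average 66.4% of the 15 nearest neighbours of a barcode of the set were in the set, which is 46.1% of the stroma. For the Scnn1b Slc6a2 set these values were 42.2% and 23.5%.

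**Figure D4:**
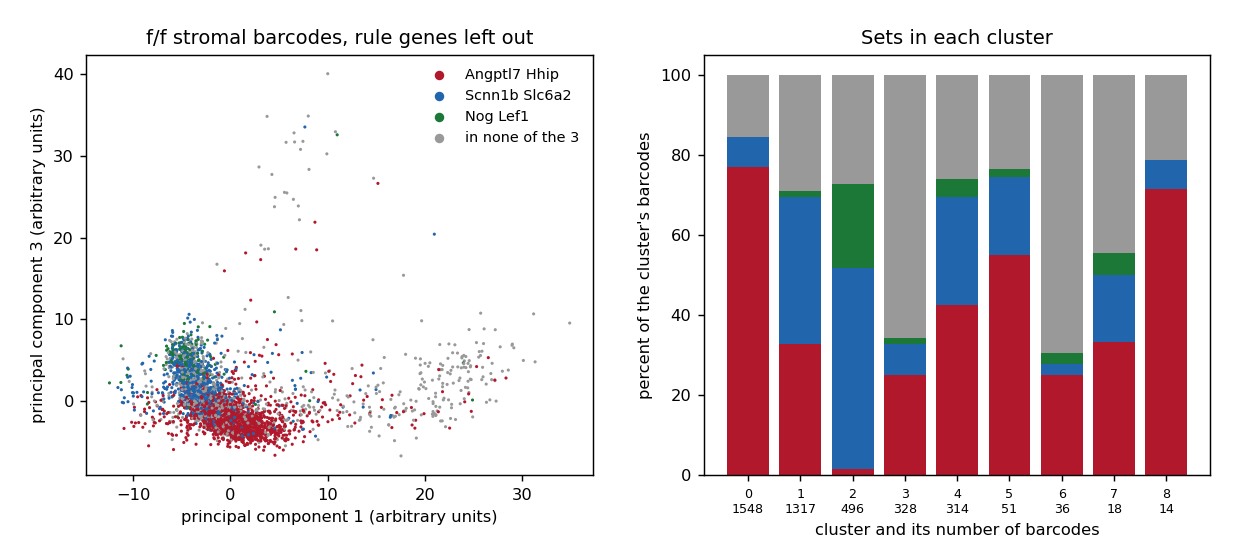
Left, f/f stromal barcodes on principal components 1 and 3 of genes without the rule genes, coloured by set, and right, the percent of each cluster's barcodes in each set, with the number of barcodes under each bar. Red is 76.9% of cluster 0 and 1.61% of cluster 2, and the colours overlap on the left.

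Levels inside a cluster are given as a description, since Fam46c, Entpd2 and Ly6a are among the genes that lead cluster 0. In cluster 0, Fam46c stood at 94.8 CPM in the set and at 74.3 CPM (interval 63.9 to 85.9) in the 357 other barcodes, and in cluster 1 at 29.7 and 17.8 CPM. Entpd2 stood at 184 and 162 CPM in cluster 0 and at 68.4 and 59.8 CPM in cluster 1. Ly6a stood at 612 and 532 CPM in cluster 0 and at 206 and 171 CPM in cluster 1. Ctla2a, which is not among those genes, stood at 5753 and 3693 CPM in cluster 0 and at 2274 and 1875 CPM in cluster 1. The marker levels of the 432 barcodes of the set in cluster 1, which the rule fixed, were 329 CPM for Angptl7 against 481 CPM in cluster 0, where Hhip stood at 106 CPM. Barcodes of the set in the C3 and Clec3b cluster had 146 CPM of Fam46c and 189 CPM of C3.

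Levels also varied with the number of own markers detected. From 2 to 5 markers, Pappa stood at 7.92, 3.66, 3.04 and 1.24 CPM and Tgfbi, a matrix adhesion gene, at 29.4, 23.8, 16.2 and 10.3 CPM. Fam46c had no such order, at 99.5, 81.4, 68.1 and 84.4 CPM. C3 stood at 70.1 CPM with 2 markers and between 2.47 and 8.27 CPM with more. Depth ran the same way, with medians of 4927, 6067, 6643 and 7254 UMIs, and its part in these orders was not tested.

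In the d/d library the rule found fewer such barcodes. It was met by 173 of 1414 d/d stromal barcodes, 12.2% (interval 10.6 to 14.1), against 46.1% in f/f. After thinning to 2000 UMIs the shares were 5.38% (63 of 1170) and 40.1%, and 521 d/d and 748 f/f kept barcodes were too shallow to enter. Median depth was 7270.5 UMIs in d/d stroma and 6608 in f/f stroma. Of the 173, 84 had 2 own markers and 1 had 5. Stroma by the rule was itself 22.4% of the kept d/d barcodes and 54.2% of those of f/f.

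Of the 5 markers, 4 were far lower over all d/d stroma and Hhip was not. Angptl7 stood at 245 CPM over the f/f stroma, against 36.6 CPM over that of d/d (ratio 0.149, interval 0.135 to 0.165). Fst stood at 277 and 46.9 CPM, Maob at 552 and 94.7 CPM and Vit at 224 and 10.4 CPM (ratio 0.0462, 0.0381 to 0.0556). Hhip stood at 41.4 and 45.3 CPM, a ratio of 1.10 (0.986 to 1.22), and was detected in 16.5% and 16.2% of barcodes. Over all genes, 13.4% of 11898 were at least 1.5-fold higher and 19.9% lower in d/d stroma, so differences of that size were common. In the d/d barcodes under the rule Hhip was detected in 54.9% at 149 CPM, and Angptl7 in 41.6% at 167 CPM. In the d/d Scnn1b Slc6a2 set Hhip stood at 24.1 CPM, against 5.29 CPM in f/f, and in the d/d stroma in none at 37.3 CPM, against 15.1 CPM. Hhip and Angptl7 are markers of the rule, so their shares and levels in the sets that it sorted are partly fixed by it. They are given as a description. The Angptl7 level of immune-like barcodes was 86.8 CPM in the f/f library but 0.260 CPM in the other. The part of free RNA in the marker levels was not tested.

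**Figure D5:**
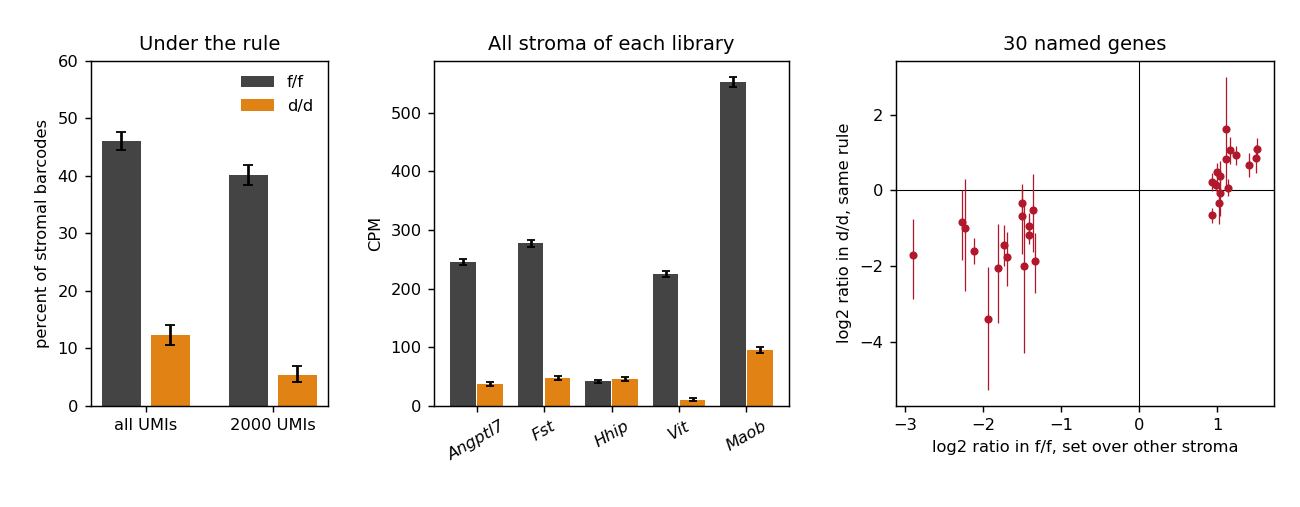
Left, percent of stromal barcodes meeting the rule in f/f (dark grey) and d/d (orange) on all UMIs and after thinning, with 95% exact intervals, and middle, CPM of the 5 markers over all stroma with Poisson intervals, where Hhip is the pair of similar height (41.4 and 45.3 CPM). Right, log2 ratio of each of the 30 named genes between the barcodes under the rule and the other stroma, f/f on the x axis and d/d, with its 95% interval, on the y axis.

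The genes that set the f/f barcodes apart were compared inside the d/d library, which the choice of the set had not used. Of the 15 higher genes, 12 had the same sign in the 173 d/d barcodes against the other d/d stroma, 7 were at least 1.5-fold higher, and 8 had an interval above 1. Their median log2 ratio was 0.48, against 1.11 in f/f. Unlike the counts over all genes, those of the named genes in d/d had no minimum of 50 UMIs. Hrk, which passed both the fold and the interval, had 7 UMIs in the 173 barcodes and 15 in the other d/d stroma. For 1500015O10Rik the levels were 81.6 and 38.5 CPM, for Cldn1 115 and 60.5 CPM, for Arl4d 60.3 and 28.8 CPM and for Ctla2a 1483 and 842 CPM. Cxcl12 ran the other way, at 147 and 233 CPM, as did Ly6c1 (23.3 and 29.3 CPM) and Dpep1 (21.2 and 22.5 CPM). All 15 lower genes had the same sign, with a median of -1.44 against -1.70 in f/f, and 11 had an interval below 1. Gatm, a creatine synthesis enzyme, stood at 2.74 and 28.8 CPM and Rxfp1 at 10.3 and 37.6 CPM. Over all 10033 genes, 0.658% were at least 1.5-fold higher and 11.3% lower (44 and 82 of 2927 at 50 CPM), and the median log2 ratio was -0.09. The share of all genes by sign or by interval was not counted, so those counts of named genes have no background beside them. The 10 pericyte markers summed to 32.9 CPM in the 173 barcodes and 252 CPM in the other d/d stroma.

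The 173 d/d barcodes were also set beside the 1899 f/f barcodes. Mettl14 itself stood at 15.3 CPM (200 UMIs) in the f/f barcodes, against 1.37 CPM (2 UMIs) in those of d/d, a ratio of 0.0895 (0.0108 to 0.328). Mettl3, the catalytic partner, stood at 20.9 and 8.91 CPM. Of 19 m6A writers, erasers and readers, these 2 were lower and Rbm15 and Wtap higher. Over 10488 genes, 5.83% were higher and 26.4% lower in d/d (453 and 569 of 3215 at 50 CPM), and the median log2 ratio was -0.21. With edgeR's TMM scaling that median was -0.10.

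Stress-associated genes were higher in the d/d barcodes. Of 24 immediate early and heat shock genes, 22 were higher and 0 lower, with a median of 2.08. Fos, an AP-1 subunit, stood at 316 and 1871 CPM and Hspa1a, a heat shock protein gene, at 301 and 2131 CPM. Cdkn1a, a cell cycle inhibitor and p53 target, stood at 19.3 and 327 CPM and Hes1, a Notch target, at 43.5 and 555 CPM. The other d/d stroma had similar levels, 1678 CPM of Fos, 257 CPM of Cdkn1a and 611 CPM of Hes1, and over all stroma the list median was 2.05. Of 24 proliferation genes, 13 were lower in the d/d barcodes and 1 higher (Pcna).

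Other lower genes in the d/d barcodes included Rgs2, a regulator of G protein signalling, at 1072 and 85.7 CPM, and the basement membrane collagen gene Col15a1 at 734 and 152 CPM. Ly6a stood at 515 and 125 CPM and Ctla2a at 4673 and 1483 CPM, and the other d/d stroma had 119 CPM of Ly6a and 842 CPM of Ctla2a. The 8 further stromal markers summed to 8473 CPM in the f/f set, 14346 CPM in the d/d barcodes and 15674 CPM in the other d/d stroma. Extracellular matrix genes were higher in 17 of 44 and lower in 6, with Ogn at 95.4 and 372 CPM and Col1a1 at 2766 and 5831 CPM. In the hedgehog list, Gli1 stood at 107 and 71.3 CPM, Sufu at 27.9 and 17.8 CPM and Ptch1 at 344 and 414 CPM. The immune markers summed to 122 CPM in the f/f set, against 43.9 CPM in the d/d barcodes, with 9 of 11 lower, and Coro1a and Nkg7 were at 0 in d/d.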

How the data were processed

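Each deposited matrix gives UMI counts that are not normalized, 1 value for every gene and barcode pair, per the file headers. The submitters' processing notes name Cell Ranger 3.0.1 and mm10, whereas cellranger 6.0.1 stands in the matrix files, so the version is open. The f/f library held 8164 barcodes and 55080123 UMIs, and d/d 6661 and 44745031, and the libraries shared 8 barcodes, of which 0 were in the set. Barcodes were kept with at least 1000 UMIs, 500 genes and at most 20% mitochondrial UMIs. Scrublet (scanpy 1.11.5) marked the top-scoring 533 f/f and 355 d/d barcodes. Its own threshold marked 0 in f/f and so did not work there. Marked barcodes (65 of the set) were kept and left out as an alternative. UMIs were summed per set and divided by its total. Leiden clusters (resolution 0.5) used leidenalg 0.10.2, and alternative scaling used edgeR 4.0.16. Intervals and calls were checked on simulated counts, which held counting error only and no spread between cells. In the Nog Lef1 comparison, more unchanged genes were called and fewer truly different genes were recovered than in the other f/f comparisons. Named genes are the 15 highest and 15 lowest per f/f comparison (12 for d/d), ranked by the interval bound nearest 1, with 50 UMIs and 20 CPM in the higher group, plus up to 6 per gene list. The members, lists and rules were chosen with earlier results of these data known. Genes outside that rule, such as Col1a1, Col3a1, Sparc, Adamts5, Wnt5a, Ptch1, Gli1, Nr2f2, Pgr, Esr1, Mki67, Fos and Hspa1a, were named after their values were seen. Gene positions and promoters come from GRCm38 annotation.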

Additional observations from a re-analysis of the deposited data

How the results depend on the processing

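No paired analysis was possible because each genotype has 1 library, and leaving out a replicate would leave none. Of 1198 values of named genes under the alternatives, 1166 moved by less than 1.5 times, 32 moved by more and 0 changed sign. Of 345 list medians 341 moved by less than that. A change of sign was looked for only in lists whose main median was at least 1.5-fold in either direction, and 0 reversed. The share of f/f stroma in the set was 41.6% with at least 3 own markers and 40.1% with thinning to 2000 UMIs, and that of d/d stroma 6.29% and 5.38%. With the rule on thinned barcodes, 77 genes were higher than in the other f/f stroma, 310 higher than in the Scnn1b Slc6a2 set, 111 lower than in the Nog Lef1 set and 262 higher in the d/d barcodes than in f/f. With no gene minimum beyond 20 UMIs over both groups, 486 genes were higher and 849 lower against the other f/f stroma. Against the Scnn1b Slc6a2 set the counts were 851 and 677, and 1457 were lower than in the Nog Lef1 set. With 100 UMIs, 285, 156 and 106 were lower in these 3 comparisons. With 50 CPM in the higher group, chosen after the data were seen, 45 and 49, then 96 and 61, were higher and lower in the first 2 comparisons, 209 were higher than in the Nog Lef1 set, 569 were lower in d/d than in f/f barcodes and 82 lower within d/d. On thinned barcodes, 2 of 23 lists had more genes higher than lower against the other stroma (6 on all UMIs), 5 had more lower against the Scnn1b Slc6a2 set (3) and 1 against the Nog Lef1 set (3). At resolution 1 the cluster richest in the set was 81.3% members and the one holding most of it had 19.0%. Causes were not tested beyond the fewer UMIs and genes that thinning and minimums leave. A set of 146 or 173 barcodes limits what can be seen of genes at low levels.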
